A study of Drosophila melanogaster with 2 samples.

Results

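The small nucleolar RNA (snoRNA) genes of Drosophila melanogaster, and the genes whose introns carry them, were examined for occupancy by the protein CG4707 in embryos. All genes of the Ensembl release 115 annotation whose symbol starts with snoRNA: were taken, which gave 257 of 18164 genes. A host was any gene on the same strand whose body holds the whole snoRNA gene. By this rule 236 of the 257 snoRNA genes had a host, and these lay in 85 host genes. For 12 snoRNA genes the rule gave 2 hosts, because host bodies can overlap on the same strand. Of the hosted genes, 216 of 236 lay in an intron of every transcript that spans them, 14 overlapped an exon of some of those transcripts and 6 overlapped an exon of all of them. A further 21 snoRNA genes had no host.

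A snoRNA works as a guide inside a protein complex and base-pairs with ribosomal RNA or another target. Box C/D snoRNAs place a methyl group on a ribose, and box H/ACA snoRNAs turn a uridine into pseudouridine. In flies most snoRNAs are cut out of introns of a longer transcript, so that the promoter of the host drives them. Many hosts code for ribosomal proteins or other parts of the translation machinery, and some, called Uhg (U snoRNA host gene), are non-coding.

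The data came from chromatin immunoprecipitation with sequencing (ChIP-seq) on whole embryos of mixed sex, aged 0 to 14 h, from a transgenic line with GFP fused to the C terminus of CG4707. The series holds this 1 genotype in 2 biological replicates, numbered 2 and 3, with no second condition, so no test between conditions was possible and no p-value is given. One label in free text names each library as input control, but the labels for title, assay and antibody give transcription factor ChIP-seq, so each was read as an immunoprecipitated library. The antibody label gives only the name CG4707, the line expresses the tagged copy in a whole organism, and no cell type can be told apart.

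A peak is 1 of the 3470 regions that passed the authors' reproducibility threshold, and these were the 3470 strongest of the 30000 regions called on the pooled reads. Pooled regions outside the 3470 are called weak regions below. Rank 1 is the region of highest signal, and signal is in the unit of the authors' caller, so it was compared only within a list. Each replicate list also held 30000 regions. Positions are on dm6. A summit counted for a gene when it lay within 500 bp of the snoRNA start or of any annotated transcription start site (TSS) of a host. All intervals are exact Clopper-Pearson 95% intervals and cover counting error only, and the depth is unknown. The intervals treat genes as independent, although snoRNA genes of 1 host can share a peak.

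The sequences below are picked examples of the genomic context and do not show how often a motif goes with a peak. They were read from the NCBI RefSeq Release 6 genome, which is the same assembly as dm6. Each of the first 7 lines runs 5′ to 3′ on the gene's strand from 70 bases before a host TSS to 29 after it, so that the TSS is base 71. Capitals mark CTTT within 10 bases of the TSS, the core of the pyrimidine start motif of ribosomal protein genes, and TATCGATA, the DNA replication-related element (DRE).

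RpL14: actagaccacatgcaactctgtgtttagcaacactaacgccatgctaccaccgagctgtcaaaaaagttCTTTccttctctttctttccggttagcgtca
RpL3: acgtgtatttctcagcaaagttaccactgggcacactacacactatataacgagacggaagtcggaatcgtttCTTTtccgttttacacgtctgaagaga
RpL10Ab: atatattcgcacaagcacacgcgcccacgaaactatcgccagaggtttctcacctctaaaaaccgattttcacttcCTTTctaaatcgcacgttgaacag
RpS12: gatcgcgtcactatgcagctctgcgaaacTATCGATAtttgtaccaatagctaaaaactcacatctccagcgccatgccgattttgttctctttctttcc
RpS5a: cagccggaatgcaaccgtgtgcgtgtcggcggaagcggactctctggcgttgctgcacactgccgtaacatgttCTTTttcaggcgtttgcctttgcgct
Uhg2: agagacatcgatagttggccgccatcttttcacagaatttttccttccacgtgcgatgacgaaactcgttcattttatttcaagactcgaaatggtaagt
Arpc2: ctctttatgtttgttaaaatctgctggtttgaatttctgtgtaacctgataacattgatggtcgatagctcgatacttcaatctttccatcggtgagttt

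The windows are chr3L:8600936-8601035 (plus strand) for RpL14, chr3R:11221824-11221923 (plus strand) for RpL3, chr3L:11822781-11822880 (plus strand) for RpL10Ab and chr3L:13023282-13023381 (plus strand) for RpS12. They are chrX:17148235-17148334 (minus strand) for RpS5a, chr2L:9894974-9895073 (minus strand) for Uhg2 and chr2L:20416987-20417086 (plus strand) for Arpc2. The first 6 hosts had a peak at the TSS, and Arpc2, which holds the most snoRNA genes of any host, had none. The Uhg2 and Arpc2 windows carry no capitals, because CTTT was not found within 10 bases of the TSS and TATCGATA was not found in the window. The same held for RpL17, a ribosomal protein host with a peak at rank 554, whose window is not printed.

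The next pair are snoRNA genes that lay within 500 bp of a peak, U49:66Da in an intron of RpL14 (chr3L:8601473-8601552, plus strand) and Psi18S-920 in an intron of RpL10Ab (chr3L:11822984-11823124, plus strand). Capitals mark box C (TGATGA) and box D (CTGA) in the first and the ACA box in the second. The last line is the 121 bases around the summit of the strongest peak near any snoRNA start, 228 bp upstream of Psi28S-2622 (chr3L:1488618-1488738, plus strand). Capitals there mark CACTGT, the reverse complement of ACAGTG, a 6-mer searched for in all peaks. It was found at only 1 of 16 peaks near a snoRNA start (6.25%, interval 0.158 to 30.2). Its share over all peaks was 26.5%, which lies inside that interval.

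snoRNA:U49:66Da: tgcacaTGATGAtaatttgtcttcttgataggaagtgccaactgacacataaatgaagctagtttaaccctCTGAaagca
snoRNA:Psi18S-920: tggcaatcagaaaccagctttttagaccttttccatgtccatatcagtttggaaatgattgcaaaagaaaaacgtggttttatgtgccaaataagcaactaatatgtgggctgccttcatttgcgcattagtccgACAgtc
snoRNA:Psi28S-2622: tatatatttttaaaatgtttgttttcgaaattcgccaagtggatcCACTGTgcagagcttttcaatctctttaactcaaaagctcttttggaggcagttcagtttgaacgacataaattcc

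The gene names sort the snoRNAs by the chemistry they guide, and their sequences were checked against the names. Names of methylation or box C/D type were carried by 94 genes, names of pseudouridylation or box H/ACA type by 115, and other names by 48. Both TGATGA within the first 25 bases and CTGA within the last 15 were found in 63 of 94 genes with a methylation name and in 0 of 115 with a pseudouridylation name. ACA within the last 15 bases was found in 110 of 115 genes with a pseudouridylation name and in 11 of 94 with a methylation name. Lengths ran from 46 to 511 bp with a median of 134 bp.

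CG4707 lay at the promoters of many hosts and at few snoRNA genes themselves. Of the 85 hosts, 42 (49.4%, interval 38.4 to 60.5) had a peak at a TSS, against 10.5% of all genes. A pooled region of any strength lay at a TSS of 69 hosts (81.2%, 71.2 to 88.8), against 43.3% of all genes. At the snoRNA starts a peak was found for 19 of 257 genes (7.39%, 4.51 to 11.3), against 8.97% of all other genes. A pooled region of any strength lay at 55 starts (21.4%, 16.5 to 26.9), against 41.6% of other genes. The share of snoRNA starts with a peak was thus near the background, and the host share was above it. Counted by snoRNA gene, 119 of the 236 hosted genes (50.4%) stood in a host with a peak.

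**Figure D1:**
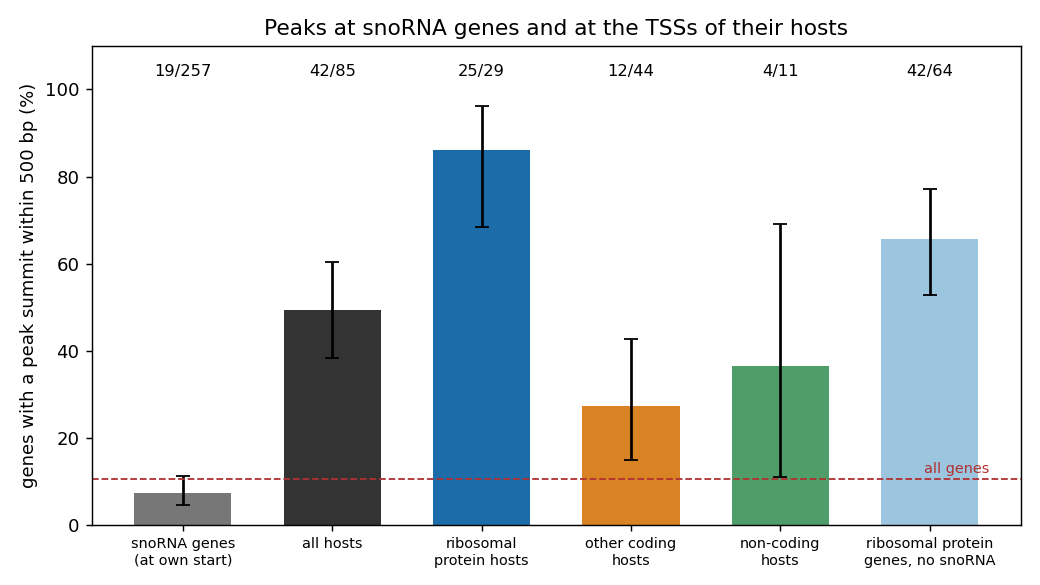
Share of genes with a peak summit within 500 bp, in percent, for snoRNA genes at their own start, for hosts at a TSS by kind of host, and for ribosomal protein genes that hold no snoRNA gene. Bars give the share, error bars the exact 95% interval and the fractions above them the counts; the dashed line is the share of all genes with a peak at a TSS, 10.5%. Hosts that code for ribosomal proteins stand highest at 25 of 29.

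The ribosomal protein hosts carried most of the host peaks. Of 29 such hosts, 25 had a peak (86.2%, interval 68.3 to 96.1), and all 29 had a pooled region. The 64 ribosomal protein genes that hold no snoRNA also had peaks often, in 65.6% of cases (42 of 64, interval 52.7 to 77.1). The intervals of these groups overlap, and the difference between them was not tested. The 4 ribosomal protein hosts without a peak, among them RpS29, RpL5 and RpL15, each had a weak region.

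RpS4, which codes for a protein of the small ribosomal subunit and holds 3 snoRNA genes, had the strongest peak of this kind. Its signal was 794 (rank 127), its rank was 117 in replicate 2 and 150 in replicate 3, and its summit lay 1 bp from the TSS. RpL14, a protein of the large subunit with 2 snoRNA genes, had a signal of 626 at rank 187, with ranks 186 and 209 in the replicates and the summit at -2 bp, in a window shared with Nelf-E. RpL30 had a signal of 596 at rank 206, with ranks 231 and 205 and the summit at -9 bp. In all 3 genes the summit lay at the TSS and the replicates gave the peak a similar rank.

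The peak at RpL13A, with 2 snoRNA genes, had rank 254 and signal 532, and the window also held the TSSs of Dph4 and Spec2. RpL3, which holds 4 snoRNA genes, had rank 343 and signal 457, with ranks 349 and 365 in the replicates. RpL27A and RpL28 followed at ranks 353 and 354, with signals of 454 and 453. The replicate ranks of RpL13A (275 and 287), RpL27A (403 and 373) and RpL28 (371 and 362) differed little. The RpL28 window also held the TSS of the translation initiation factor gene eIF1.

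Further down, the ranks were 494 for RpL23A, 508 for RpS7, 521 for RpL11, 527 for RpL4, 554 for RpL17 and 580 for RpL22. They were 611 for RpS3A, 660 for RpS16 and 674 for RpL7A. Replicates moved apart more here: RpS7 ranked 427 in replicate 2 and 687 in replicate 3, and RpL23A 666 and 428. RpS5a, which with 14 snoRNA genes holds the most of any host with a peak, had signal 294 at rank 813, with ranks 822 and 926 and the summit at -26 bp.

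Summits at ribosomal protein hosts lay close to the TSS, and those at other hosts were more spread. The median position was -4 bp over the 25 ribosomal protein hosts (range -102 to 109) and -10 bp over the 17 other hosts with a peak (range -400 to 479). Over all 1569 peaks at a TSS it was -73 bp. A summit within 50 bp of the TSS, not counted over all peaks at a TSS, was found for 22 of 25 ribosomal protein hosts. It was found for 8 of 17 other hosts. RpS20 at -102 bp, RpL23A at -60 bp and RpS9 at 109 bp were the ribosomal protein hosts outside that range. The median signal over the 41 separate host peaks was 325 (interval of the median 223 to 380), beside 186 over all 1569 peaks at a TSS. It was 361 over ribosomal protein hosts and 224 over the others.

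**Figure D2:**
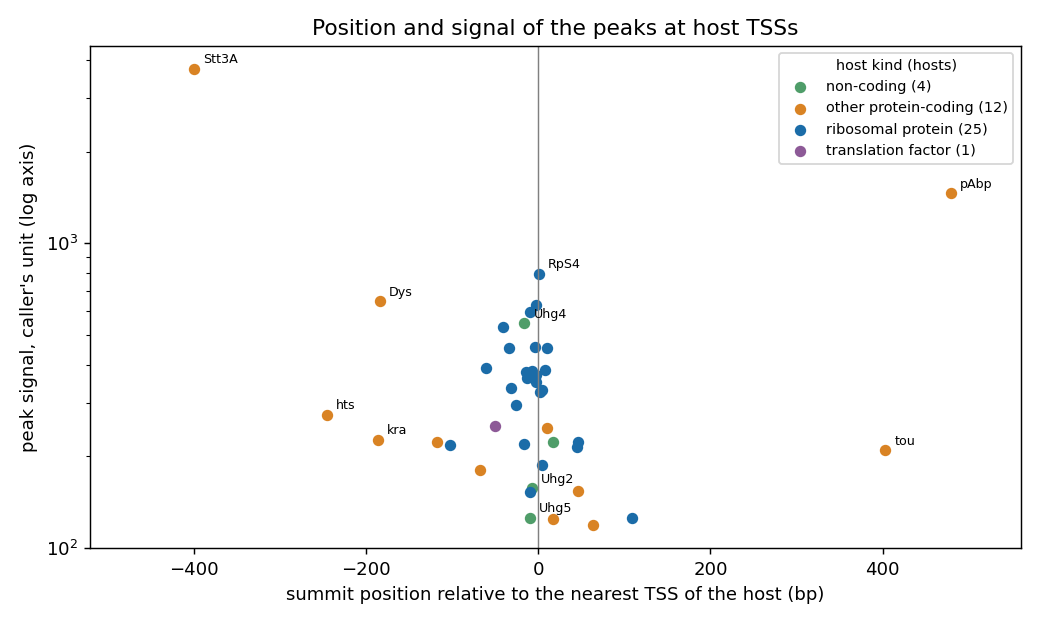
Each point is 1 host with a peak at a TSS, coloured by kind. The horizontal axis gives the summit position relative to the nearest TSS of that host in bp (negative is upstream), and the vertical log axis the peak signal in the caller's unit. Ribosomal protein hosts cluster within 50 bp of the TSS, while Stt3A and pAbp, with the highest signals, lie at -400 and 479 bp.

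Among hosts that code for other proteins, 12 of 44 had a peak (27.3%, interval 14.96 to 42.8), against 11.6% of all protein-coding genes outside ribosomal proteins and translation factors. The translation elongation factor gene eEF1alpha1, the only host counted as a translation factor, had a peak at rank 1043. Without the ribosomal protein genes, 17 of 56 hosts of all kinds had a peak (30.4%, 18.8 to 44.1), against 10.5% of all genes. The 17 include the pseudogene CR33222, whose only peak, at rank 1272, is shared with RpS6. When a peak counted only for its nearest gene, a rule chosen after seeing the data, 14 of 56 had one, against 8.24% of all genes.

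Stt3A, which codes for a catalytic subunit of oligosaccharyltransferase and holds 2 snoRNA genes, had the third strongest peak of the whole list. Its signal was 3743, with rank 2 in replicate 2 and rank 3 in replicate 3. The summit lay at -400 bp from the TSS of Stt3A and nearer to the TSS of bves, so the peak cannot be given to Stt3A alone. pAbp, the gene of the poly(A)-binding protein, with 3 snoRNA genes, had signal 1459 at rank 33, with ranks 46 and 27, and the summit lay 479 bp downstream of its nearest TSS. Dys, the dystrophin gene, had signal 647 at rank 173 with the summit at -184 bp, and the TSS of Scsalpha2 lay in the same window. Its single snoRNA gene starts 16986 bp from the nearest TSS of Dys.

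Sharing of a peak was common. Of the 42 hosts with a peak, 20 had the TSS of another gene within 500 bp of the same summit. For 5 hosts another gene's TSS lay nearest to the summit, among them bves for Stt3A, CalpA for hts, mgr for Irbp, and CR33222 for RpS6. CR33222 and RpS6 are both hosts of snoRNA:Or-aca2 and share 1 peak at rank 1272, which leaves 41 separate peaks for 42 hosts.

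The 11 non-coding hosts are 10 ncRNA genes and the pseudogene CR33222, whose only peak is the one it shares with RpS6. Of the 10 ncRNA hosts 3 had a peak (interval 6.67 to 65.2%), against 5.49% of all ncRNA genes, and these were Uhg2, Uhg4 and Uhg5. Uhg4, with 7 snoRNA genes, had signal 546 at rank 243, ranks 235 and 245 in the replicates, and its summit at -16 bp. Uhg2, with 4 snoRNA genes, had signal 157 at rank 2189 with the summit at -7 bp, and its rank was 4121 in replicate 2 and 1964 in replicate 3. Uhg5, with 11 snoRNA genes, had signal 126 at rank 3172 with the summit at -10 bp, and it ranked 3898 and 3534, outside the top 3470 of both replicates. The Uhg2 window also held a TSS of Bka, and the Uhg5 window one of CG12863.

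The other Uhg genes had no peak. Uhg3 (3 snoRNA genes) had a weak region of signal 91.3 at rank 5097, 3 bp upstream of the TSS, and Uhg8 (3 snoRNA genes) one of signal 42.7 at rank 15394. Uhg1 (16 snoRNA genes) and Uhg7 (4 snoRNA genes) had no region at a TSS in the pooled list or in either replicate list. Uhg7 lies inside RpL23A on the same strand, and its 4 snoRNA genes are also held by RpL23A, which had a peak at rank 494. In all, 3 of 7 Uhg hosts had a peak and 5 of 7 a pooled region.

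The number of snoRNA genes in a host did not order the hosts by occupancy. A peak lay at 19 of 46 hosts of 1 snoRNA gene (41.3%, interval 27.0 to 56.8), at 16 of 24 hosts of 2 to 4 (66.7%, 44.7 to 84.4) and at 7 of 15 hosts of 5 or more (46.7%, 21.3 to 73.4). The share over all genes was 10.5%. Without ribosomal protein hosts the counts were 9 of 34 (26.5%, 12.9 to 44.4), 5 of 11 (45.5%, 16.7 to 76.6) and 3 of 11 (27.3%, 6.02 to 61.0). In both sets the intervals overlap, and the differences were not tested. The 11 hosts with at least 7 snoRNA genes hold 118 of the 257, and 5 of them had a peak: RpS5a, Uhg5, kra, RpS7 and Uhg4. kra, a regulator of translation with 8 snoRNA genes, had its strongest peak at rank 1231 with signal 227, and its rank was 1737 in replicate 2 and 938 in replicate 3.

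Arpc2, which codes for a subunit of the Arp2/3 actin-nucleating complex and holds 17 snoRNA genes, had no pooled region at a TSS, and a region at rank 12523 was listed in replicate 2 only. Sf3b3, a splicing factor gene with 9 snoRNA genes, likewise had only a region at rank 16267 in replicate 2. dom, which codes for the chromatin remodeller Domino and holds 15 snoRNA genes, had a weak region of signal 80.7 at rank 6123, 1 bp from the TSS. Hrb98DE, an hnRNP gene, and Nop60B, the gene of the pseudouridine synthase of H/ACA complexes, each hold 7 snoRNA genes and had weak regions at ranks 5866 and 6563. All 3 weak regions had a summit within 50 bp of a TSS.

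**Figure D3:**
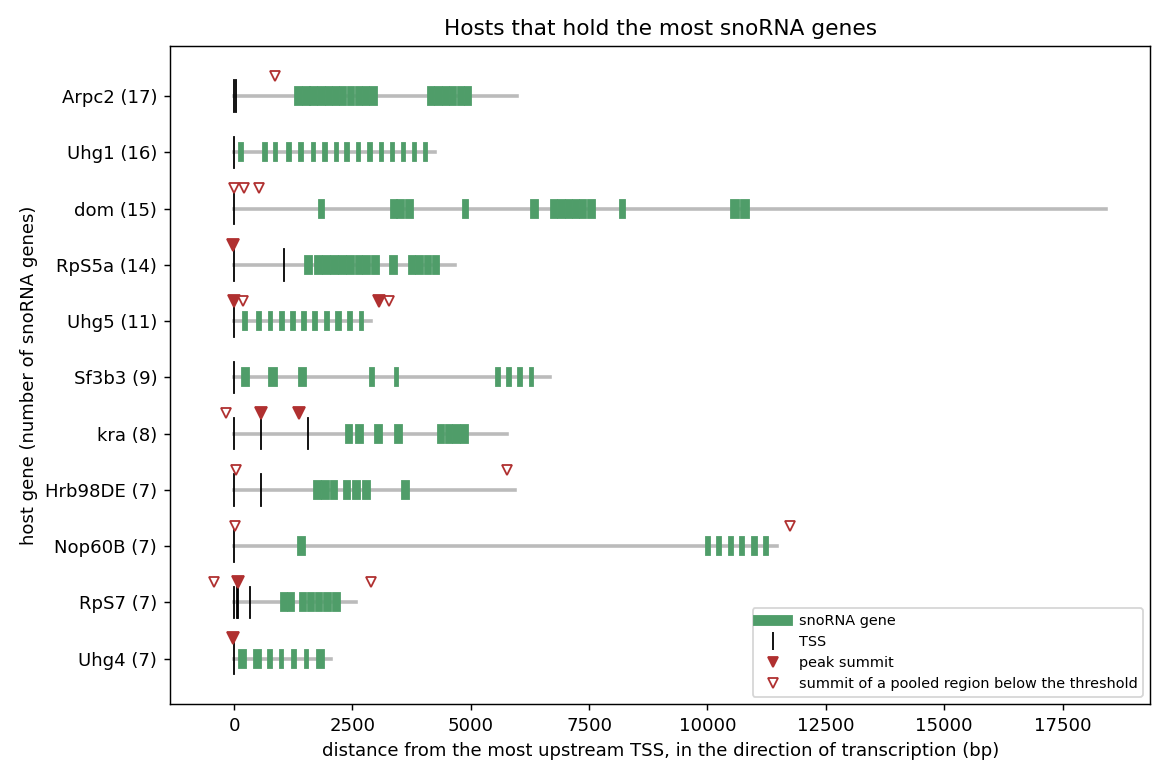
The 11 hosts with at least 7 snoRNA genes, drawn to scale from the most upstream TSS in the direction of transcription (bp). Grey lines are gene bodies, green boxes snoRNA genes, black ticks TSSs, filled triangles peak summits and open triangles summits of pooled regions below the threshold. Summits gather at the TSS end, and Uhg5 has a further peak near its 3′ end.

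The hosts with a peak were found in each replicate, whose reads the pooled list also contains. Peaks were chosen by a reproducibility threshold, so agreement between replicates is partly set by that choice. The same shares were not computed over all peaks. All 42 hosts with a peak had a region at a TSS in both replicate lists, and 37 of 42 had one among the 3470 strongest of each replicate. The 5 exceptions, among them Uhg2, Uhg5, RpS9 and CG3902, were all at pooled ranks from 2189 to 3225. The median rank of the 42 was 832.5 in replicate 2 and 845 in replicate 3. With each replicate's own top 3470, 41 hosts had a region at a TSS in replicate 2 and 42 in replicate 3.

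**Figure D4:**
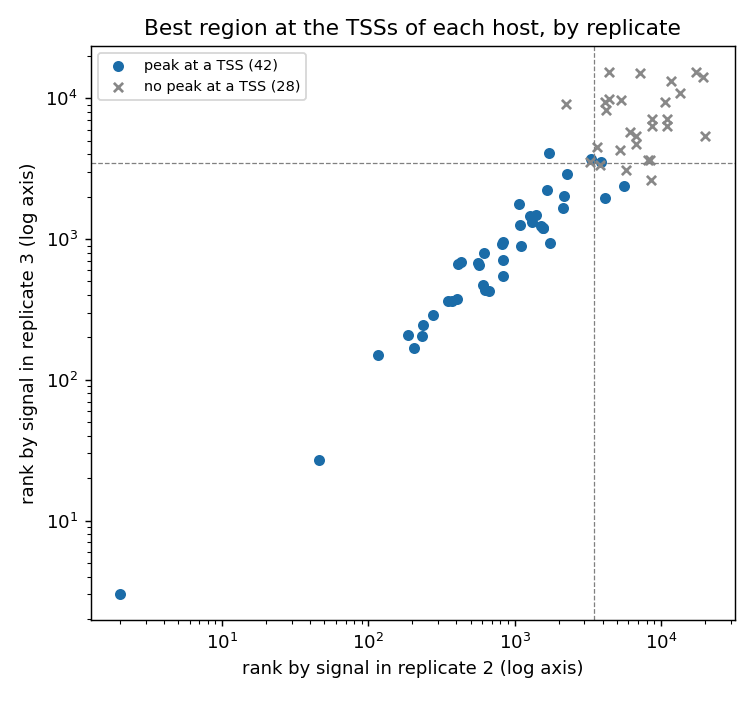
Rank by signal of the strongest region at a TSS of each host in replicate 2 and replicate 3, on log axes, for the hosts with a region in both lists. Filled circles are the 42 hosts with a peak, crosses hosts without one, and dashed lines mark rank 3470. Most of the circles lie to the lower left of both lines, 37 of 42.

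The weak regions at hosts began right at the threshold. The lowest host with a peak was lola, a transcription factor gene with 4 snoRNA genes, with signal 119 at rank 3439. The next host below the threshold was RpS29 at rank 3479 with signal 118, ranked 2260 in replicate 2 and 9098 in replicate 3. Rbfox1 (an RNA-binding protein gene, rank 3670), Msp300 (a nesprin gene, 4181), RpL5 (4387) and Dek (4423) were lower. In all, 27 hosts had a weak region without a peak, with signals from 36.7 to 118, and 16 hosts had no pooled region at a TSS.

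The 19 snoRNA genes near a peak lay at 16 separate peaks. For 13 of the 19 a TSS of the host lay in the window of the same peak, and for 18 of the 19 the summit was upstream of the snoRNA start. The median summit position was -226 bp relative to the snoRNA start, and the range was -497 to 407 bp. In both replicates 13 of the 19 had a region among the 3470 strongest within 500 bp.

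In ribosomal protein genes these were U49:66Da in RpL14 (summit at -469 bp), Or-CD11a in RpL28 (-453 bp), Psi28S-1232 in RpL17 (-425 bp), Me28S-A774b in RpS12 (-226 bp), Psi18S-920 in RpL10Ab (-149 bp), Psi28S-2648 in RpL36A (-464 bp) and Or-aca2 in RpS6 and CR33222 (-82 bp). In Uhg4 they were Psi28S-2949 (-115 bp) and Or-aca5 (-428 bp). In Uhg2 they were Me18S-A1576 (-103 bp) and Me18S-G1620 (-466 bp), and in Uhg5 Me18S-C1366 (-191 bp) and Me28S-C3227a (-497 bp). In all 13 the window of the peak also held a TSS of the host, so a peak at the snoRNA gene and one at the host promoter cannot be told apart.

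The remaining hosted genes were Or-CD4 in Uhg5 and Dek-a in Dek. Or-CD4, of box C/D name, starts 2652 bp from the TSS of Uhg5, and the peak at rank 3024 had its summit 407 bp downstream of its start. It ranked 2751 in replicate 2 and 3859 in replicate 3. Dek-a had a summit at -83 bp from a peak at rank 3339, which ranked 2821 and 4291, and the host Dek had no peak at its TSS. Both lie in the lowest part of the list and outside the top 3470 of replicate 3.

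The 4 others had no host. Psi28S-2622, an H/ACA gene by name, had the strongest peak near any snoRNA start, with signal 665 at rank 167 and ranks 163 and 176 in the replicates. The summit lay nearer to the start of another small RNA gene, sncRNA:CR43701, at 61 bp, so the peak cannot be given to Psi28S-2622 alone. Psi18S-176 had a summit at -10 bp from a peak at rank 2050, with ranks 1996 and 2505. Or-ACA6 had one at -464 bp (rank 2350) and snoRNA:185 one at -219 bp (rank 3007). The snoRNA:185 summit lay 160 bp from the start of a tRNA gene, while the nearest TSS outside the snoRNA genes was 865 bp from the Or-ACA6 summit.

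Of the 21 snoRNA genes without a host, 4 had a peak within 500 bp (19.0%, interval 5.45 to 41.9), against 8.97% of other genes, which lies inside that interval. A pooled region of any strength lay near 17 of the 21 (81.0%, 58.1 to 94.6), against 41.6% of other genes. Some of these genes share a region, so the intervals are too narrow. The U3 genes, whose RNA is needed for cleavage of the ribosomal RNA precursor and which have their own promoters, had weak regions only. These stood at rank 26218 for U3:54Aa, 16999 for U3:54Ab and 21093 for U3:9B. A region near U3:54Aa was listed in replicate 3 and not in replicate 2, and one near U3:9B in replicate 2 and not in replicate 3.

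Peaks at snoRNA starts were more frequent close to a TSS of a gene outside the snoRNA genes, which can be the host itself. A peak lay near 8 of 22 snoRNA starts within 250 bp of such a TSS, near 7 of 26 at 250 to 500 bp, near 3 of 64 at 500 to 1000 bp, near 0 of 80 at 1000 to 2000 bp and near 1 of 65 beyond that. Over 1000 bp away, Or-CD4 was thus the only one of 145 (0.690%, interval 0.0175 to 3.78). The share over the starts of all other genes, at any distance from another TSS, was 8.97%. The window is 500 bp, so a start within that distance of an occupied TSS can share its peak.

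Counts were also made at other distances. A peak summit lay within 1000 bp of 56 snoRNA starts (21.8%, interval 16.9 to 27.3), against 12.0% of the starts of other genes. For 43 of the 56, such a peak also lay within 500 bp of a TSS of the host. Within 2000 bp it was 107 (41.6%, 35.5 to 47.9) against 16.6%, and within 250 bp it was 10 (3.89%, 1.88 to 7.04) against 6.70%. The snoRNA share was thus below that of other genes at short distance and above it from 750 bp on, though at 250, 500 and 750 bp its interval still held the value of the other genes. In hosts with a peak, the snoRNA start lay a median of 1007 bp from the nearest TSS of a spanning transcript, and in hosts without one 2132 bp.

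**Figure D5:**
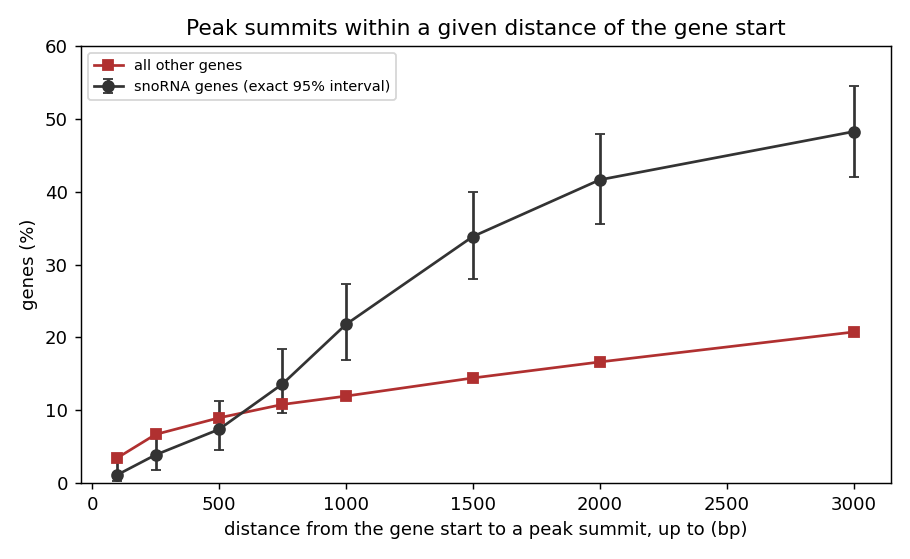
Share of genes, in percent, with a peak summit within the distance on the horizontal axis (bp) of the gene start. Black circles are the 257 snoRNA genes with exact 95% intervals, red squares the 17907 other genes. The snoRNA line crosses above the other genes between 500 and 750 bp and reaches 48.2% at 3000 bp.

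Shares were close for both kinds of guide. A peak lay near 7 of 94 genes with a methylation name (7.45%, interval 3.05 to 14.7) and near 9 of 115 with a pseudouridylation name (7.83%, 3.64 to 14.3). The host had a peak for 50 of 88 hosted methylation genes (56.8%, 45.8 to 67.3) and for 57 of 106 hosted pseudouridylation genes (53.8%, 43.8 to 63.5). For genes with other names it was 12 of 42 (28.6%, 15.7 to 44.6). Genes of 1 host share its peak, so these intervals are too narrow, and the differences were not tested.

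Genes of the proteins that bind snoRNAs were read at the same promoters. Of 15 genes listed, 14 were found in the annotation, and 3 had a peak at a TSS (21.4%, interval 4.66 to 50.8), against 10.5% of all genes. NHP2, a core protein of H/ACA complexes, had signal 316 at rank 723, ranks 744 and 791 in the replicates, and the summit at -185 bp. pont, an ATPase of snoRNP assembly, had rank 1869, and Nopp140, a chaperone of snoRNPs, had rank 2914.

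The other core genes had weak regions or none. The methyltransferase gene Fib, itself a host of 1 snoRNA gene, had signal 89.1 at rank 5284. Nop56 (rank 11270) and hoip (8743) of C/D complexes, Nop60B (6563) and Nop10 (7540) of H/ACA complexes, and the assembly genes rept (7745) and Nufip (5372) also stood below the threshold. Gar1, nop5, Tgs1 and Phax had no pooled region at a TSS. Of these, nop5 had a region at rank 4436 in replicate 2 and 15373 in replicate 3, and Tgs1 at rank 23246 in replicate 2 only. In all 10 of 14 had a pooled region, against 43.3% of all genes.

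Short motifs were counted, with both strands searched, in the 100 bp on either side of the summit at host peaks and at all 1569 peaks at a TSS. CACTGTGC and ACAGTG had already been reported for these same peaks, so their choice is not independent of the data. The 8-mer CACTGTGC was found at 4 of 41 host peaks (9.76%, interval 2.72 to 23.1) and at 8.86% of all peaks at a TSS. Its hosts were RpL23A, kra, Dys and Stt3A. The 6-mer ACAGTG, which the reverse complement of the 8-mer contains, was found at 6 of 41 host peaks (14.6%, 5.57 to 29.2) and at 25.4% of all peaks at a TSS. It was present at 2 of 25 ribosomal protein hosts, RpL23A and RpS16.

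TATCGATA, the DRE, was found at 5 of 41 host peaks (12.2%, interval 4.08 to 26.2) and at 4.40% of all peaks at a TSS. All 5 were ribosomal protein hosts, RpL36A, RpL28, RpL10Ab, RpS12 and RpS7, and 4 of these peaks were among the 16 near a snoRNA start. In the RpS12 window printed above it lies upstream of the TSS. GAGAGAGA was found at 0 of 41 host peaks, for which the interval reaches up to 8.60%, and at 4.33% of all peaks at a TSS. CTTTT, a short and frequent string, was found at 34 of 41 host peaks and at 62.4% of all peaks at a TSS.

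On the strand of the gene and within 10 bases of a TSS, CTTT was found for 36 of 85 hosts (42.4%, interval 31.7 to 53.6), against 12.8% of all genes. These letters were chosen after the windows had been seen. They were found for 22 of 29 ribosomal protein hosts (75.9%) and for 48 of 64 ribosomal protein genes without a snoRNA (75.0%), and for 14 of 56 other hosts. The longer CTTTT, which contains CTTT, gave 22 of 85 hosts (25.9%) against 4.46% of all genes. Among hosts outside the ribosomal proteins, CTTT was present at 6 of 17 with a peak and at 8 of 39 without one, with overlapping intervals of 14.2 to 61.7% and 9.30 to 36.5%. A match says only that these letters stand in the window.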

How the data were processed

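ChIP-seq of GFP-tagged CG4707 in 1 group of 2 biological replicates was used as the authors' deposited region lists. Per the deposited file listing, regions were called for each replicate and for both together, with a control alignment, and 3470 pooled regions passed an irreproducible discovery rate threshold. Per the labels, positions are on dm6. Which aligner and which caller were used is not given in the sources used here. The deposited signal is a score in the authors' caller's own unit, used for ranks and medians within 1 list. The other deposited column used is the summit offset from the region start. Region lists carry no read totals, so the depth is unknown.

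Summits were placed on Ensembl release 115 (BDGP6), and sequence was read from the RefSeq Release 6 genome. The rule for members and hosts is that given in the report, with a window of 500 bp, and shares are set beside the same share over all genes, with no test. The search at snoRNA starts was tested on simulated summits planted at known distances from snoRNA genes that stand apart from other snoRNA genes. All genes with a summit planted inside the window were recovered, with no others. The rule for hosts was checked on a small made-up annotation only. Counts at host TSSs and at clustered snoRNA genes were not tested in this way. Members and lists were chosen with earlier results of these data known.

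Named genes are the snoRNA genes near a peak with their hosts, the 20 hosts of highest signal, the hosts with the most snoRNA genes (ties kept, so 11 in place of 8), all Uhg hosts, the snoRNP protein list, and the 6 strongest hosts with a pooled region but no peak. Genes outside this rule (the U3 genes, RpL15, the lowest peaks, genes that share a window, hosts with a motif, at odd positions or that differ between replicates) were named after their values were seen. Some genes that the rule would name are not reported here. The snoRNP list holds Fib, Nop56, nop5, hoip, Nop60B, NHP2, Gar1, Nop10, Nopp140, pont, rept, Nufip, Shq1, Tgs1 and Phax; Shq1 was not matched to a symbol. Alternatives were windows of 250 and 1000 bp, a stricter threshold, each replicate alone, other TSS and host definitions, the snoRNA midpoint and region overlap. Scripts ran in Python 3.11.15 with pandas 2.3.3, numpy 2.4.6, matplotlib 3.10.9 and scipy 1.17.1.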

Additional observations from a re-analysis of the deposited data

How the results depend on the processing

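The count of hosts with a peak at a TSS (42 of 85) stayed between 34 and 45 under the alternatives that kept the same 85 hosts. The lowest, 34 under the stricter threshold (40.0%), stood beside 5.56% of all genes. TSSs of spanning transcripts (41) and the nearest gene of the peak (38) were chosen after seeing the data. With other host sets it was 38 of 74 protein-coding hosts and 40 of 82 when only the shortest host per snoRNA was kept. The host count for pooled regions of any strength stayed between 68 and 76 where the hosts were the same 85, and the median host signal between 294 and 361. Hosts outside ribosomal proteins with a peak (17 of 56) fell to 11 (19.6%) under the stricter threshold, which keeps the stronger part of the peaks. The share of all genes fell with it, from 10.5% to 5.56%. The snoRNA starts with a peak (19) numbered 10 in a 250 bp window, 56 in a 1000 bp window, 10 under the stricter threshold and 5 when the region had to overlap the snoRNA. The 10 under the stricter threshold were 3.89%, against 4.61% of all other genes. Those with a pooled region (55) numbered 32 at 250 bp (12.5%, against 31.6% of other genes) and 112 at 1000 bp (43.6%, against 50.8%). By overlap they numbered 23. The snoRNA starts over 1000 bp from other TSSs with a peak (1) numbered 0 at 250 bp and 8 at 1000 bp (5.52%, against 12.0% of other genes). They numbered 0 under the stricter threshold, 2 from the midpoint, 0 by overlap, and 0 to 1 with 1 replicate left out. Or-CD4 was lost without replicate 2. The snoRNP genes with a peak (3) numbered 1 under the stricter threshold (7.14%, against 5.56% of all genes). Windows and thresholds change these counts by construction. Taking all 269 genes of the snoRNA biotype, also chosen after seeing the data, left 19 with a peak. The median signal was not recomputed for single replicates, because signals of lists called separately are not comparable. No paired analysis was possible because the series has 1 group.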
